A study of Equus caballus with 93 samples.

Results

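ENSECAG00000007588 and ENSECAG00000022525 are the 2 genes, of 15838 in the table, whose RNA rose most between week 0 and week 2 in cells of horse synovial fluid, with both treatment arms combined. They were chosen by that rise, so every value that uses week 0 or week 2, the differences between arms included, is given below as a description with no test. Among the 1152 genes with an adjusted p below 0.05 (limma), a mean of 1 log2 CPM or more and a rise in 75% or more of the horses, the estimated rise was 7.32 ± 0.62 (SE) on the log2 scale for ENSECAG00000007588 and 6.37 ± 0.58 for ENSECAG00000022525. The next gene in that order rose by 5.84 ± 0.77 and the one after it by 5.46 ± 0.38. Log2 CPM is the base-2 logarithm of a gene's reads relative to the scaled size of its library, and 1 unit is a doubling. The files name genes only by Ensembl horse identifier and pair none of them with a symbol, so no role can be given for either gene.

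Synovial fluid is the lubricating fluid of a joint. In a healthy joint it holds few cells, mainly macrophages and lymphocytes with some cells shed from the synovial lining, and after joint injury or surgery leukocytes enter it. The osteochondral fragment model produces osteoarthritis by lifting a chip of cartilage and bone at the margin of the middle carpal joint and then exercising the horse. Injectable polyacrylamide hydrogel (iPAAG) is a non-degradable gel injected into the joint space. In cells pelleted from fluid, fewer cells of a type and less RNA per cell cannot be told apart. The identity of the cells could not be checked against marker genes, because no marker could be found by name.

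The animals were 16 horses of 2 to 5 years, 7 mares and 9 geldings, and all of them carried the surgical fragment in 1 middle carpal joint. At week 2 that joint received 2 mL of 2.5% iPAAG in 8 horses or 2 mL of saline in the other 8, the Control arm, and all horses were exercised on 5 days a week from week 2 to week 10. Fluid was drawn before surgery (week 0) and at weeks 2, 4, 6, 8 and 10. Whether the fluid of week 2 preceded the injection is not given by the labels. Surgery and time run together in both arms, so their parts in a change over weeks cannot be told apart. From week 2 on, exercise runs together with both. Sham-operated joints were not analysed here. The 93 libraries cover all 6 weeks in 13 horses, and the missing ones are week 4 of horses 3 and 11 and week 8 of horse 14.

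The median library had 21063527 reads in genes, the shallowest 1737741 and the deepest 39916655. Libraries also differed in their spread, the SD of log2 CPM over all genes, which ranged from 1.20 to 4.21. In 23 libraries from 12 horses the spread was below 2, and these held at most 12597216 reads against at least 6076026 in the 70 others. Low-spread libraries made up 4 of the 7 iPAAG libraries and 0 of the 7 Control libraries at week 4, and 6 of the 8 iPAAG and 2 of the 8 Control libraries at week 10.

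Before surgery ENSECAG00000007588 was low in most libraries. In the 8 Control libraries of week 0 it ranged from -5.98 to 0.29 log2 CPM with a median of -4.60, which was 0 to 35 reads, and 4 of these libraries had no read of it. The 8 iPAAG libraries of week 0 ranged from -4.17 to 2.70 with a median of -0.98, or 1 to 169 reads. The ranges of the arms overlapped, although the horses had not yet been treated, and the highest value, in horse 3, lay in the arm later given gel. Values of libraries with no or few reads depend on the 0.5 reads that the log2 transform adds.

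At week 2 every horse had more of ENSECAG00000007588 than at week 0. The Control libraries held 2.95 to 7.22 log2 CPM with a median of 5.45, which was 154 to 2917 reads. The iPAAG libraries held 2.00 to 6.87 with a median of 5.38. Within a horse the rise spanned 3.68 to 12.86, with a median of 6.74. All week 2 values of the Control arm lay above all its week 0 values, while in the iPAAG arm the highest week 0 value was above the lowest at week 2.

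The later course of ENSECAG00000007588 differed from horse to horse. At week 4 the Control libraries spread from -0.65 to 8.59 log2 CPM with a median of 5.75. Horses 2, 15 and 16 stood at 8.59, 7.36 and 7.09, while horse 1 had fallen from 5.63 at week 2 to -0.65, or 21 reads. The iPAAG libraries of week 4 lay between 1.17 and 6.16 with a median of 3.55. The Control arm thus held both the highest and the lowest libraries of that week.

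From week 6 the medians of ENSECAG00000007588 lay below those of week 2 and above those of week 0 in both arms. Control medians were 2.93, 2.83 and 1.06 log2 CPM at weeks 6, 8 and 10, with ranges of -0.07 to 5.66, 0.77 to 5.79 and -1.52 to 3.38. The iPAAG medians were 4.08, 3.00 and 2.47, with ranges of 2.10 to 5.89, -0.73 to 3.22 and 0.55 to 3.43. Week 10 exceeded week 0 in 15 of 16 horses, by a median of 4.15 over all 16. The exception was horse 14 of the iPAAG arm, which went from 2.24 to 1.18, and its week 0 library had a spread of 1.65. Of the 16 libraries of week 10, 8 had a spread below 2, with a mean of 2.86 against 0.66 in the others. With libraries of spread 2 or more only, week 10 exceeded week 0 in 7 of 7 horses, by a median of 1.54. Over both arms the estimated changes from week 0 to weeks 2, 4, 6, 8 and 10 were 7.32 ± 0.62 (SE), 6.47 ± 0.64, 5.66 ± 0.62, 4.84 ± 0.63 and 4.03 ± 0.62, a stepwise decline of the estimate averaged over the arms. With libraries of spread 2 or more only, the change to week 10 was 3.06 ± 0.89 over both arms, 4.28 ± 0.98 in Control and 1.85 ± 1.49 in iPAAG. Within an arm the steps were uneven, with 6.49 and 6.64 at weeks 6 and 8 in Control and 4.44 and 4.83 at weeks 4 and 6 in iPAAG.

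ENSECAG00000022525 also started low. Its Control libraries of week 0 ranged from -5.09 to 0.45 log2 CPM with a median of -1.46, and its iPAAG libraries from -5.90 to 1.81 with a median of -0.77. Over both arms this was 0 to 91 reads, with no read in 1 library of each arm. At week 2 the Control range was 4.19 to 7.19 with a median of 5.35, and the iPAAG range was 1.77 to 6.16 with a median of 4.89. Each of the 16 horses rose, by 2.83 to 12.28 with a median of 6.55.

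After week 2 the arms of ENSECAG00000022525 took different shapes, which is a description with no test. In Control horses the week 4 libraries ran from 1.34 to 8.55 log2 CPM with a median of 5.90, and horses 16, 15 and 2 reached 8.55, 8.52 and 8.34. In iPAAG horses the week 4 libraries lay between 2.09 and 4.40 with a median of 3.05, all below the week 4 Control median. By weeks 6 and 8 the iPAAG medians were 5.09 and 4.97, with ranges of 2.58 to 7.39 and 3.53 to 6.10. Week 6 was above week 4 in all 7 iPAAG horses with both libraries, and week 8 was above week 4 in all 6. In Control horses week 6 was above week 4 in 3 of 7 and week 8 in 1 of 7. Of the 7 iPAAG libraries of week 4, 4 had a spread below 2, at 2.50 to 3.68. With libraries of spread 2 or more only, week 6 was above week 4 in 1 of 1 iPAAG horse and 3 of 5 Control horses. Week 8 was then above week 4 in 3 of 3 iPAAG horses and 1 of 6 Control horses.

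At week 10 ENSECAG00000022525 was low again in both arms. The Control libraries ranged from -0.13 to 4.09 log2 CPM with a median of 1.69, and the iPAAG libraries from 0.09 to 3.66 with a median of 2.93. Of the 8 iPAAG libraries, 6 had a spread below 2, at 2.09 to 3.35, and the other 2 held 0.09 and 3.66. In the 6 Control libraries of spread 2 or more the median was 1.54. Week 10 lay below week 6 in 15 of 16 horses and below week 8 in 13 of 15. The corresponding changes from week 0 over both arms were 6.37 ± 0.58 (SE), 5.76 ± 0.60, 6.26 ± 0.58, 5.86 ± 0.59 and 3.57 ± 0.58. With libraries of spread 2 or more only, the change to week 10 was 3.02 ± 0.82. By arm, the changes at weeks 2, 4, 6 and 8 were 7.26, 7.33, 6.46 and 5.92 in Control and 5.48, 4.19, 6.06 and 5.79 in iPAAG, and week 10 was the lowest of these later weeks in each arm, at 3.54 and 3.60.

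**Figure D1:**
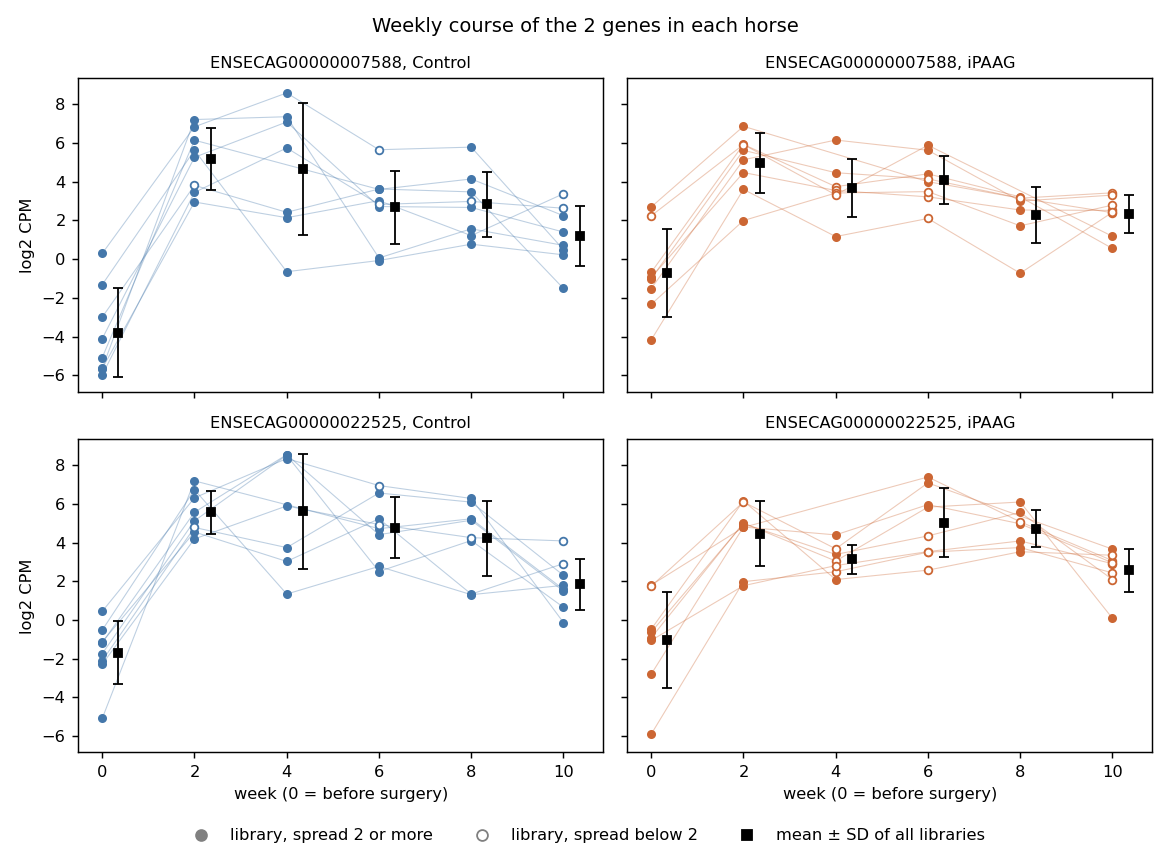
Log2 CPM of each gene (y axis) by week (x axis) in every library, with Control horses on the left and iPAAG horses on the right. Lines join the libraries of 1 horse, open circles are libraries of spread below 2, and black squares with bars are means ± SD. Both genes are lowest at week 0 in nearly every horse, and the Control libraries of week 4 span -0.65 to 8.59 for ENSECAG00000007588 and 1.34 to 8.55 for ENSECAG00000022525.

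The week of the highest value also varied. Among the 13 horses with all weeks, ENSECAG00000007588 peaked at week 2 in 6 horses and at week 4 in 5, and weeks 6 and 10 held the peak of 1 horse each. ENSECAG00000022525 had its peak at week 2 in 2 horses, while weeks 4, 6 and 8 held it in 4, 3 and 4. By arm, ENSECAG00000022525 peaked at week 4 in 4 of 7 Control horses and at week 8 in 4 of 6 iPAAG horses. Whether the week of the peak differed between arms was not tested.

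The rank of a gene among all genes of its own library does not depend on the scaling of that library. It is a rank by read share, not corrected for gene length, so it is used here only to compare a gene with itself. The median rank of ENSECAG00000007588 over all horses was percentile 5.87 before surgery and then 68.0, 34.3, 40.1, 36.0 and 18.9 at weeks 2 to 10. For ENSECAG00000022525 the same medians were 8.93, 63.3, 42.2, 62.0, 63.4 and 20.5. In both genes weeks 0 and 10 had the lowest median ranks. The low median of week 4 included the low-spread libraries, and in libraries of spread 2 or more the week 4 medians were 64.5 and 52.3.

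Rank also moved with library spread. In the 22 low-spread libraries of weeks 2 to 10 the median rank was percentile 18.9 for ENSECAG00000007588 and 21.8 for ENSECAG00000022525. In the 55 other libraries of those weeks it was 43.2 and 59.5. ENSECAG00000007588 lay above its library's median gene in 2 of the 22 and in 22 of the 55, and ENSECAG00000022525 in 5 and in 34. Log2 CPM in the low-spread libraries of all weeks kept within 2.10 to 5.92 for ENSECAG00000007588 and 1.75 to 6.95 for ENSECAG00000022525. With library spread as a covariate in the model, the changes from week 4 to week 10 over both arms, tested below, were -2.60 for ENSECAG00000007588 and -2.26 for ENSECAG00000022525 (adjusted p = 0.00192 and 0.00392, limma).

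**Figure D2:**
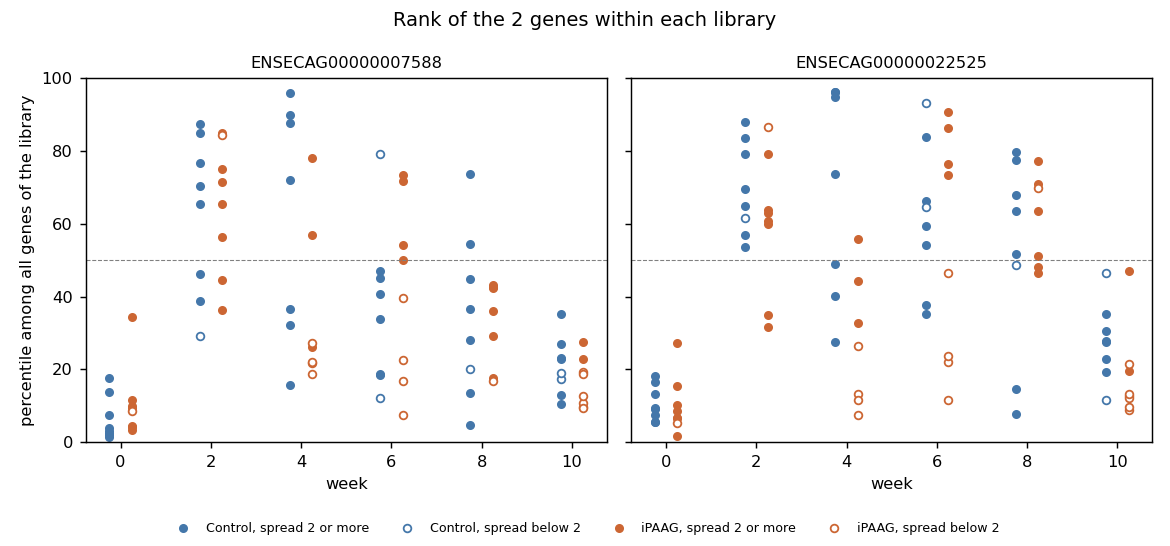
Percentile of each gene among all 15838 genes of its library (y axis) by week (x axis), 1 point per library, with the dashed line at the library's median gene. Most open circles, the libraries of spread below 2, lie in the lower part of the range, and at week 10 all libraries of both genes lie under the dashed line.

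The rise that ranked the genes compares weeks 0 and 2, and by its size they had ranks 1 and 2 among all genes. Weeks 4 to 10 entered the other criteria, the mean log2 CPM over all libraries and the adjusted p. The later decline was therefore tested across all genes with limma. An F test of any difference among weeks 4, 6, 8 and 10 over both arms gave F = 5.38 (adjusted p = 0.0223, limma) for ENSECAG00000007588 and F = 8.76 (adjusted p = 0.00229, limma) for ENSECAG00000022525. This test called 2573 genes, or 16.2%, so a call in it was not rare. For ENSECAG00000007588 it did not pass the threshold without horse 2, 12, 15 or 16, with adjusted p of 0.0636, 0.0553, 0.0559 and 0.0693 (limma), or with voom weights, which weight each value by its expected precision (adjusted p = 0.106, limma).

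From week 4 to week 10 both genes fell. ENSECAG00000007588 fell by 2.44 ± 0.64 (SE) over both arms (adjusted p = 0.00846, limma) and was lower in 11 of 14 horses. ENSECAG00000022525 fell by 2.19 ± 0.60 (adjusted p = 0.0114, limma), also lower in 11 of 14. The test called 9.4% of genes, 849 higher and 639 lower at week 10, and the median change of all genes was 0.05. Counted from the largest fall, these were the 12th and the 25th of 15838 estimates. Restricted to the 70 libraries of spread 2 or more, the falls were 3.78 ± 0.99 and 2.95 ± 0.92 (adjusted p = 0.00625 and 0.0184, limma), so both estimates were larger there. The fall of ENSECAG00000022525 did not pass without horse 2, 15 or 16 (adjusted p = 0.0527, 0.0565 and 0.0505, limma) or with voom weights (adjusted p = 0.0578, limma).

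Within the Control arm the fall from week 4 to week 10 was 3.49 ± 0.91 (SE) for ENSECAG00000007588, lower in 5 of 7 horses, and 3.79 ± 0.85 for ENSECAG00000022525, lower in 6 of 7. Both passed (adjusted p = 0.00617 and 0.00157, limma), in a test that called 12.4% of genes, and that of ENSECAG00000007588 was lost without horse 2 (adjusted p = 0.0515, limma) and with voom weights (adjusted p = 0.0776, limma). The model takes its SE from a spread shared by all groups. Control libraries had SDs of 3.40 and 2.97 log2 CPM for the 2 genes at week 4, against 1.56 and 1.30 at week 10. These SEs and p-values therefore do not reflect the wider spread between horses at week 4. Horse 2 alone went from 8.59 to 0.49 log2 CPM of ENSECAG00000007588 and from 8.34 to -0.13 of ENSECAG00000022525. The largest falls of both genes came from this horse.

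Within the iPAAG arm the estimates from week 4 to week 10 were -1.40 ± 0.91 (SE) for ENSECAG00000007588, lower in 6 of 7 horses, and -0.59 ± 0.85 for ENSECAG00000022525, lower in 5 of 7. Neither passed (adjusted p = 0.977 for both, limma), and this test called 0% of genes, with 558 at an unadjusted p below 0.05. With libraries of spread 2 or more only, the estimates were -3.31 ± 1.71 and -1.47 ± 1.58 (neither passed in limma, the smaller adjusted p being 0.3504), more than 2 times as large, from 3 libraries of week 4 and 2 of week 10 that share no horse. The change differed between arms (iPAAG minus Control) by 2.09 ± 1.29 for ENSECAG00000007588 and by 3.20 ± 1.20 for ENSECAG00000022525. Neither difference passed after adjustment (adjusted p = 0.718 and 0.633, limma), and this test called 0% of genes, with 1189 at an unadjusted p below 0.05. These differences were 0.94 ± 1.99 and 2.96 ± 1.84 with libraries of spread 2 or more only. The fall is therefore not shown to differ between arms.

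The arms were compared at each week as gel minus saline. At week 0, before any treatment, the estimate was 3.10 ± 0.90 (SE) for ENSECAG00000007588 and 0.67 ± 0.83 for ENSECAG00000022525, given with no test because these values served to choose the genes. Across all genes the limma test of this difference called 0%, with 582 at an unadjusted p below 0.05. The estimate for ENSECAG00000007588 compares libraries of 0 to 35 reads with libraries of 1 to 169. Under quantile normalisation it was 1.06, about 3 times smaller, and that for ENSECAG00000022525 turned to -0.31. The rise of ENSECAG00000007588 from week 0 to week 2 was 8.98 ± 0.88 in Control and 5.66 ± 0.88 in iPAAG, although the arms stood close to each other at week 2.

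At week 2 the estimates were -0.22 ± 0.90 (SE) for ENSECAG00000007588 and -1.11 ± 0.83 for ENSECAG00000022525, again as a description. Across all genes the limma test called 0%, with 1051 at an unadjusted p below 0.05. The direction for ENSECAG00000007588 turned without horse 2, 7 or 15, the estimates then being 0.02, 0.20 and 0.07, and under quantile normalisation, where it was 0.21.

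Of weeks 4 to 10, only week 4, 2 weeks after the injection, had a difference between arms that passed. ENSECAG00000022525 was lower with gel by an estimate of -2.47 ± 0.89 (SE), with an adjusted p of 0.0180 (limma). The 2 arms overlapped, since horses 1, 13 and 10 of the Control arm stood at 1.34, 3.03 and 3.74. Values of this gene were more dispersed among saline horses (SD 2.97 log2 CPM) than among gel horses (SD 0.77). The model assigns both arms the same spread, so this SE and p-value do not reflect the wider spread among saline horses. For ENSECAG00000007588 the estimate was -0.96 ± 0.96 (adjusted p = 0.373, limma), and it passed at -2.18 under quantile normalisation (adjusted p = 0.0410, limma). In this comparison 54.2% of all genes were called, 3426 higher and 5163 lower with gel, so the call of ENSECAG00000022525 does not set it apart by itself. Its estimate was the 129th from the lowest of 15838.

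The week 4 difference of ENSECAG00000022525 depended on which libraries entered. With libraries of spread 2 or more only, 3 of the 7 iPAAG libraries were left and the estimate was -2.41 ± 1.20 (adjusted p = 0.417, limma), nearly the same size with a larger error. Without horse 2, 15 or 16 it was -2.02, -1.98 and -1.98 (adjusted p = 0.0561, 0.0655 and 0.0707, limma). Centring each library on its median moved the median difference of all genes from 0.04 to -0.22 and the estimate of this gene to -2.73.

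At the later weeks no difference between arms passed for either gene. The week 6 estimates were 1.43 ± 0.90 (SE) for ENSECAG00000007588 and 0.27 ± 0.83 for ENSECAG00000022525 (adjusted p = 0.445 and 0.873, limma), in a test that called 0% of genes, with 1824 at an unadjusted p below 0.05. Without the low-spread libraries they were 2.49 ± 1.22 and 2.00 ± 1.12 (adjusted p = 0.777 and 0.840, limma). The week 8 estimates were -0.51 ± 0.93 and 0.54 ± 0.86 (adjusted p = 0.889 and 0.868, limma), where 0.84% of genes were called. The week 10 estimates were 1.13 ± 0.90 and 0.73 ± 0.83 (adjusted p = 0.285 and 0.459, limma), in a test that called 0% of genes, with 6874 at an unadjusted p below 0.05. With the 6 Control and 2 iPAAG libraries of spread 2 or more at that week they were 0.26 ± 1.54 and 0.55 ± 1.42. Quantile normalisation turned the week 6 estimate of ENSECAG00000022525 to -0.91, the week 8 estimate of ENSECAG00000007588 to 0.21 and both week 10 estimates, to -0.64 and -1.30.

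Set against week 2, the mean of weeks 4 to 10 changed differently in the arms by 0.49 ± 0.99 (SE) for ENSECAG00000007588 and by 0.88 ± 0.92 for ENSECAG00000022525, a description that again uses week 2. Across all genes the limma test called 0%, with 3765 at an unadjusted p below 0.05. Both estimates turned under quantile normalisation, to -0.78 and -0.49. Without the low-spread libraries they were 0.91 ± 1.15 and 1.63 ± 1.07.

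The balance between the 2 genes was followed as the difference of their log2 CPM within a library, which no scaling of the library can change. Its level depends on the unknown lengths of the genes, so only its changes are described. The mean over libraries was -0.20 ± 1.13 (SD, n = 14) at week 4, then -1.50 ± 1.07 (n = 16) and -1.88 ± 1.10 (n = 15) at weeks 6 and 8, and -0.44 ± 1.28 (n = 16) at week 10. ENSECAG00000007588 therefore lost ground to ENSECAG00000022525 between week 4 and weeks 6 and 8. The shift was seen in both arms, from -0.96 to -2.08 and -1.39 in Control and from 0.56 to -0.92 and -2.43 in iPAAG at weeks 4, 6 and 8.

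Within horses the log2 ratio at week 6 was lower than at week 4 in 13 of 14, with a mean change of -1.19 ± 0.72 (SD, n = 14). From week 4 to week 8 the ratio was lower in 11 of 13 horses, with a mean change of -1.75 ± 1.67 (SD, n = 13). These week pairs were picked after the ratios had been seen, so no test is given for them. With libraries of spread 2 or more only, the changes were -1.23 and -1.42.

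From week 4 to week 10 the ratio changed by -0.38 ± 1.24 (SD, n = 14), lower in 8 horses and higher in 6, with p = 0.271 in an exact permutation test (sign flips over horses, two-sided). Averaged over weeks 4 to 10, the ratio of the iPAAG horses was -0.79 ± 0.67 (SD, n = 8) and that of the Control horses -1.26 ± 0.78 (SD, n = 8), a difference of 0.46 that did not pass (exact permutation p = 0.226). Both differences turned in sign with libraries of spread 2 or more only, to 0.17 and -0.57.

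**Figure D3:**
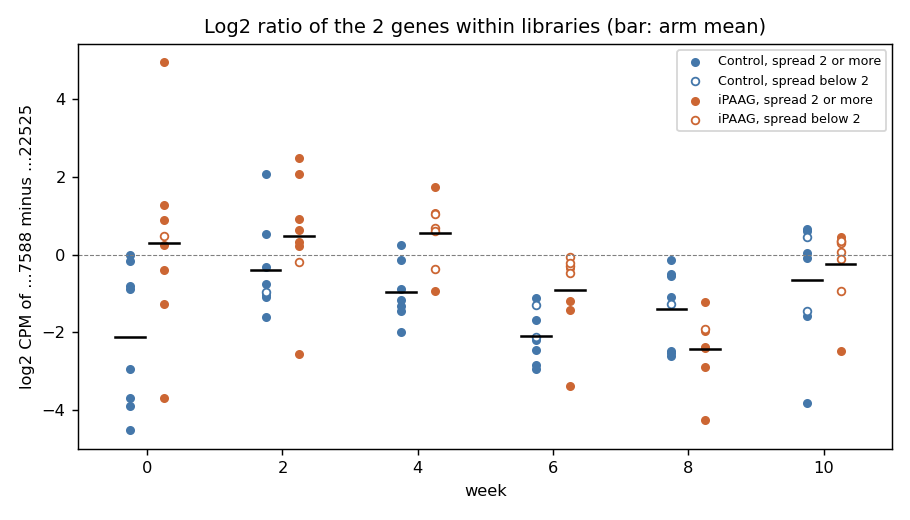
Log2 CPM of ENSECAG00000007588 minus that of ENSECAG00000022525 in each library (y axis) by week (x axis), with bars at the arm means. All libraries of weeks 6 and 8 lie below 0 in both arms, while weeks 2, 4 and 10 lie on both sides of it. At week 0 the points rest on few reads.

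The genes rose and fell together across libraries. Over the 70 libraries of spread 2 or more, Pearson's r between them was 0.86 and Spearman's rho 0.88. These libraries share horses, weeks and the common rise by which the genes were chosen, so the value is a description. Once the mean of each arm and week was removed, r was 0.68 over the same libraries. In the 23 low-spread libraries r was 0.74 and rho 0.52.

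Within horses the genes also moved together. With each horse's mean removed, r was 0.90 and rho 0.86 over the 70 libraries. With both the horse mean and the arm-by-week mean removed, r was 0.73 and rho 0.66. The 41 of these libraries from weeks 4 to 10 lie outside the weeks whose difference ranked the genes. Among them r was 0.86 and rho 0.74 with the horse mean removed, and 0.87 and 0.69 with both means removed. Removing so many means leaves few free values among 41 libraries. In the 11 horses with at least 4 libraries of spread 2 or more, r over the weeks of 1 horse ranged from 0.85 in horse 8 to 0.99 in horse 2, with a median of 0.92, and was above 0.9 in 8. These counts include weeks 0 and 2, and each rests on 4 to 6 points.

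**Figure D4:**
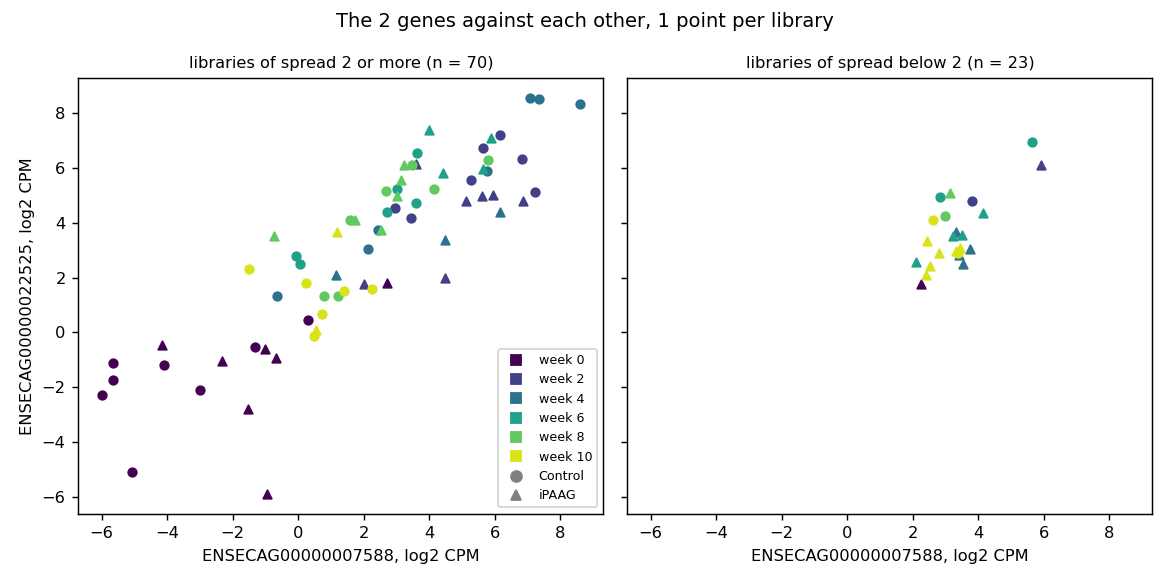
Log2 CPM of ENSECAG00000022525 (y axis) against ENSECAG00000007588 (x axis), 1 point per library, coloured by week, with circles for Control and triangles for iPAAG. The 70 libraries of spread 2 or more (left, r = 0.86) run from the week 0 points at the lower left to the week 4 Control points at the upper right. The 23 libraries of lower spread (right, r = 0.74) occupy a short stretch of the same band.

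Across horses, where each horse gives 1 point, the genes were correlated at weeks 4, 6 and 8. In libraries of spread 2 or more, r was 0.92 and rho 0.93 at week 4 (n = 10, permutation p = 0.00025 and 0.00036, adjusted 0.0022 and 0.00132 over 11 relations). At week 6, r was 0.88 and rho 0.84 (n = 10, permutation p = 0.00186 and 0.00358, adjusted 0.00682 and 0.00985), and at week 8, r was 0.75 and rho 0.92 (n = 13, permutation p = 0.00271 and 1e-05, adjusted 0.00745 and 0.00011), the last being the smallest p that the permutations can give. Without the 2 horses farthest from the median of ENSECAG00000007588, r was 0.88, 0.59 and 0.86. For the mean of weeks 4 to 10 per horse, r was 0.78 and rho 0.79 (n = 16, permutation p = 0.0004 and 0.0003, adjusted 0.0022 and 0.00132), and r was 0.61 without the 2 farthest horses. These means rest on different weeks in different horses, so the common weekly course enters them. With the arm-by-week means removed first, r was 0.71 (n = 16, permutation p = 0.00223, not adjusted).

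At week 10 no relation passed within either set of libraries. In those of higher spread r was -0.03 and rho -0.02 over the 8 horses with a library of spread 2 or more (exact permutation p = 0.953 and 0.977), and r was 0.49 without the 2 farthest horses. With the 8 low-spread libraries included, r over the 16 horses was 0.53 (permutation p = 0.0359, not adjusted). The 2 sets differed in level, with means of 2.86 and 2.98 log2 CPM in the low-spread libraries and 0.66 and 1.43 in the others. The pooled r includes that offset, so it is not a relation over horses alone. In the 8 low-spread libraries of week 10 r was 0.10 and rho 0.29 (exact permutation p = 0.815 and 0.501). In the 6 low-spread libraries of week 6 r was 0.85 and rho 0.66 (exact permutation p = 0.0389 and 0.175, adjusted 0.0856 and 0.385), and r was -0.21 without the 2 farthest, so that value rests on those libraries. For the untested weeks r was 0.40 at week 0 (n = 15) and 0.56 at week 2 (n = 14). Neither gene's mean level over weeks 4 to 10 was related to the horse's mean library spread (r = -0.04 and 0.14) or reads (r = -0.29 and 0.01) in a way that passed a permutation test over 16 horses, with adjusted p of 0.519 to 0.959. The low-spread libraries were higher than the others at week 10 but lower at week 4, with means of 3.51 and 3.01 against 4.45 and 4.93. Such opposite differences can cancel in a mean over weeks, so this test cannot show whether level and spread were related within a week.

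The genes whose pattern was most like each of the 2 were ranked by Pearson's r over the 70 libraries of spread 2 or more, as a description with no test. Over all other genes the median r was 0.00 with ENSECAG00000007588 and -0.01 with ENSECAG00000022525, and the 99th percentile was 0.69 and 0.67. An r of at least 0.8 was reached by 15 genes for the former and 23 for the latter. ENSECAG00000022525 was the gene most like ENSECAG00000007588, and in the reverse direction ENSECAG00000007588 had rank 3. These libraries include weeks 0 and 2, by which both genes were chosen, so a high r between them follows in part from that choice.

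After ENSECAG00000022525, the genes most like ENSECAG00000007588 were ENSECAG00000014259 and ENSECAG00000017436, each with r = 0.85. ENSECAG00000014259 averaged 6.19, 9.38 and 8.19 log2 CPM at weeks 0, 2 and 10, and ENSECAG00000017436 averaged 6.06, 8.80 and 7.04. Both followed the rise at a smaller amplitude on the log2 scale, and at week 10 both were above their week 0 average. The gene most opposed was ENSECAG00000021590, with r = -0.75, whose averages at weeks 0, 2, 4 and 10 were 3.93, 0.63, 0.05 and 1.68.

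The genes most like ENSECAG00000022525 were ENSECAG00000009215 with r = 0.89 and ENSECAG00000056325 with r = 0.86. ENSECAG00000056325 had a course of similar amplitude, with averages of -0.73 log2 CPM before surgery and 4.63, 5.79, 5.19, 4.42 and 2.25 at weeks 2 to 10. ENSECAG00000009215 moved from 5.25 at week 0 to 7.29, 7.59, 7.31 and 7.30 at weeks 2 to 8 and 5.98 at week 10. Like ENSECAG00000022525, both stayed high through week 8 and were lower at week 10. The most opposed was ENSECAG00000007762, with r = -0.72, whose averages ranged over less than 1 unit, from 5.63 at week 0 to 4.88 at week 2.

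**Figure D5:**
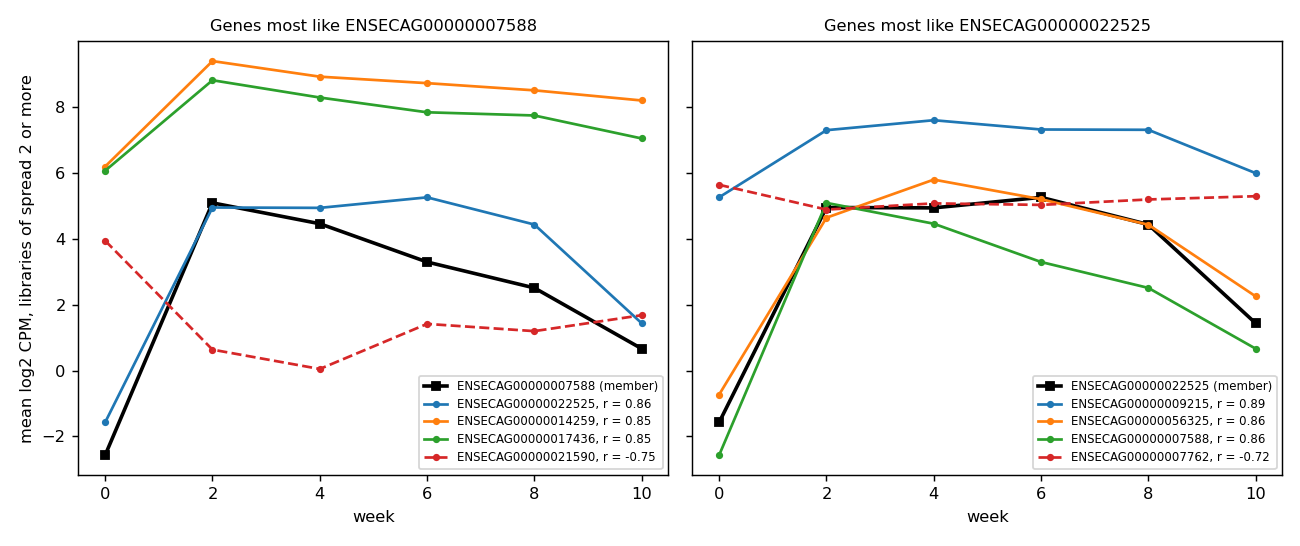
Mean log2 CPM per week (y and x axes) over the libraries of spread 2 or more for each of the 2 genes (black), the 3 genes most like it (solid) and the 1 most opposed (dashed), with r over the 70 libraries. Only changes over weeks can be compared, since values are not corrected for gene length. On the left the black line declines from week 2 on, and on the right it stays high to week 8.

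The lists of the most similar genes overlapped in part. Of the 10 genes most like each, 4 were shared (40.0% of each list), and of the 100 most like each, 46 were shared. After the arm-by-week means were removed, so that the common rise no longer counts, the r values were lower. The genes most like ENSECAG00000007588 were then ENSECAG00000022525 (r = 0.68), ENSECAG00000017436 (0.67) and ENSECAG00000011637 (0.66), of which 0 of 3 remained without horse 1 and 1 of 3 without horse 2 or 3. For ENSECAG00000022525 the order was then ENSECAG00000014973 (0.70), ENSECAG00000007588 (0.68) and ENSECAG00000013041 (0.67), of which 1 of 3 remained without horse 3. Of the 100 most similar genes, 34 were shared.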

How the data were processed

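Total RNA of synovial fluid cells was sequenced after stranded low-input library preparation, per the labels' protocols. The authors deposited log2 CPM values from voom for 15838 genes in 93 libraries. STAR 2.7.10b, EquCab3.0 and limma 3.62.2 are named per the submitters' processing notes. For read counting, its use of strand, the annotation release and the gene filter, details were not given in the sources used here, so reads of overlapping or near-identical genes may be shared. On the scale set by each library's smallest value, 100.0% of the deposited log2 values were whole reads plus 0.5 within a tolerance of 0.05 reads. Reads give the depth behind each value, and counting error is only part of the spread between horses.

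Arm, horse and week were taken from the library titles. The model had 12 arm-by-week means over all 93 libraries, fitted to the log2 values of all genes with limma 3.58.1 in R 4.3.3, with horse as a random block, a mean-variance trend and Benjamini-Hochberg adjustment over all genes at 0.05. Each gene had an estimate of spread shared by the 12 groups, so its SEs and p-values do not follow groups of wider or narrower spread. Each horse was sampled repeatedly, which pairs its libraries by animal, and the consensus correlation within horses was 0.04. Ratios and correlations used permutation tests (100000 draws, or exact) in Python 3.11.15 with scipy 1.17.1.

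The 2 genes, the tests and the gene lists were chosen with earlier results of these data known. Similar genes were named by a rule: the 3 highest Pearson r with each gene over libraries of spread 2 or more, the 3 highest after removing arm-by-week means, and the 1 lowest. Of 15838 identifiers, 0 could be paired with a symbol in the RefSeq table used, so lists of pathway genes and cell type markers were not tested, and no sequence is shown.

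Alternatives were quantile normalisation, median centring, 2 added reads, a filter at a mean log2 CPM of 1, voom weights, spread as a covariate, libraries of spread 2 or more, no block, a fixed block, and leaving out each horse.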

Additional observations from a re-analysis of the deposited data

Results flagged for a closer look

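Of 24 groups of 7 to 8 libraries (2 genes, 12 arm-by-week groups each), 2 held a library far from the others of its group by Dixon's criterion, which chance reaches in about 1 of 20 groups. In the iPAAG arm at week 8, ENSECAG00000007588 stood at -0.73 log2 CPM in horse 17, or 14 reads, against 1.72 in the next lowest library. In the iPAAG arm at week 10, ENSECAG00000022525 stood at 0.090 log2 CPM in horse 5, or 18 reads, against 2.09 in the next lowest. Both libraries had a spread above 2, at 3.81 and 3.33. Of the 8 iPAAG libraries of week 10, 6 had a spread below 2 and lay at 2.09 to 3.35, so horse 5 was compared mostly with low-spread libraries. By rank within its library, horse 5 was at percentile 19.5, above percentile 9.65 in horse 8, the next lowest by log2 CPM.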

How the results depend on the processing

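Of 204 estimates and F values for the 2 genes under alternatives other than leaving out a horse, 191 kept their direction and their side of the threshold, and of 384 with 1 horse left out, 365 did. These counts include the arm differences that use week 0 or week 2, which are descriptions. They also include many results far above the threshold, which could hardly change side, so the counts do not measure how firm a result is. Quantile normalisation turned differences between arms that had not passed or were descriptions: ENSECAG00000007588 to 0.21 at week 2, 0.21 at week 8, -0.64 at week 10 and -0.78 for the later mean (weeks 4 to 10) against week 2, and ENSECAG00000022525 to -0.31 at week 0, -0.91 at week 6, -1.30 at week 10 and -0.49 for that contrast. It also brought ENSECAG00000007588 at week 4 past the threshold, at -2.18 (adjusted p = 0.0410, limma). The cause was not tested. With libraries of spread 2 or more only, the week 4 difference of ENSECAG00000022525 was -2.41 and did not pass, with fewer libraries. With voom weights, 3 results did not pass: the fall of ENSECAG00000022525 from week 4 to week 10 over both arms at -2.46, that of ENSECAG00000007588 in Control at -3.89, and the F of ENSECAG00000007588 at 3.46 (adjusted p = 0.0578, 0.0776 and 0.106, limma).

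With each horse left out in turn, the arm difference of ENSECAG00000007588 ranged from -0.54 to 0.20 at week 2, and from -0.0051 to 0.84 for the change from week 2 to later weeks. That of ENSECAG00000022525 ranged from -3.18 to -1.98 at week 4 and from -0.068 to 0.62 at week 6. The fall from week 4 to week 10 ranged from -2.54 to -1.82 for ENSECAG00000022525 over both arms and from -4.24 to -2.75 for ENSECAG00000007588 in Control, and the F of ENSECAG00000007588 from 4.14 to 7.46.

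With libraries of spread 2 or more only, the change of the log2 ratio from week 4 to week 10 was 0.17 (exact permutation p = 0.8125), that to week 8 was -1.42, and the difference between arms was -0.57 (exact permutation p = 0.270). With all libraries, r between the genes at week 10 was 0.53 (permutation p = 0.0359, not adjusted), which includes the offset in level between low-spread and other libraries. Among the genes named as most similar by r, 1 of 3 remained for ENSECAG00000007588 and 2 of 3 for ENSECAG00000022525 with all libraries, and 2 and 1 with Spearman's rho. After removal of the arm-by-week means, 1 and 1 remained with all libraries and 2 and 1 with rho. With 1 horse left out, 2 to 3 and 1 to 3 remained by r, and 0 to 3 and 1 to 3 after that removal.

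Without the replicate block for horse, 24 of 24 values kept their direction and call, and with horse as a fixed replicate block 12 of 12 did. The limits of the counts above hold for these too. The fall of ENSECAG00000007588 from week 4 to week 10 over both arms was -2.42 without and -2.56 with the fixed block. Counts over all genes moved by more than 1.5 times. Under the other alternatives they spanned 16 to 9295 for the arms at week 4 (8589 as reported), 17 to 1352 at week 8 (133), 0 to 2358 for the change from week 2 (0), 1292 to 3739 for week 10 against week 4 (1488), 1181 to 3510 for the same in Control (1970), 0 to 471 in iPAAG (0) and 1672 to 4775 for the F test (2573). With 1 horse left out, the arms at week 10 gave 0 to 7730 (0), and the week 0 levels rest on at most 169 reads.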
